A study of Homo sapiens with 12 samples.

Results

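Metallothioneins are small cysteine-rich proteins that bind zinc, copper and cadmium, and SLC30A1 encodes the plasma membrane transporter ZNT1, which moves zinc out of the cell. The 9 genes described here are MT2A, MT1A, MT1E, MT1F, MT1G, MT1H, MT1M, MT1X and SLC30A1. They were taken by gene name and matched by identifier, and all 9 were found in both gene tables, of 58735 genes in the LNCaP table and 61221 in the PC3 table. The labels name 2 human prostate cancer lines, the androgen-sensitive LNCaP and the androgen-independent PC3, each given erastin at 5 µmol/L or its solvent DMSO. Erastin inhibits the cystine/glutamate antiporter system xc- and thereby triggers ferroptosis, a cell death driven by iron and lipid peroxides. Each of the 4 groups had 3 libraries, 12 in all, and every sample was labelled wild type. The sources used here give no exposure time, and nothing in the labels says that the libraries of a group came from separate cultures.

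Both gene groups answer to metal. The transcription factor MTF1 binds zinc, enters the nucleus and acts on short metal response elements in the promoters of metallothionein genes and of SLC30A1, so a cell with more free zinc both stores and exports it. Metallothionein genes also respond to oxidants and glucocorticoids, and their many cysteines react with oxidants. Normal prostate epithelium accumulates zinc, and prostate cancer cells hold less of it. In liver cancer cells, MT1G has been described as a brake on ferroptosis.

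The libraries held 14047979 to 17668554 reads in LNCaP and 13709558 to 16350657 in the libraries labelled PC3, as recovered from FPKM (fragments relative to gene length and to library depth). All 10 listed LNCaP markers reached 1 FPKM in every LNCaP DMSO library, and 9 of 10 PC3 markers did so in every PC3-labelled library. Summed LNCaP markers lay at 1250.1 to 1326 FPKM under DMSO and at 507 to 520.4 under erastin in LNCaP. Summed PC3 markers lay at 776 to 923 and at 143 to 148 FPKM in PC3-labelled libraries. LNCaP markers summed there to 96.3 to 162 FPKM under DMSO and 46.2 to 52.4 under erastin, with 4 of 10 at 1 FPKM in every library of either treatment. PC3 markers summed in LNCaP to 9.42 to 10.6 FPKM under DMSO and 7.32 to 8.92 under erastin, with 2 of 10 so. One gene goes against the second label: CTNNA1, known as homozygously deleted in PC-3, was at 50.6 to 56.7 FPKM under DMSO and 5.92 to 6.61 under erastin there, and it was looked up after its values were seen. Those libraries are therefore called PC3-labelled throughout. Leukocyte markers summed to at most 0.553 FPKM in LNCaP and 1.80 in PC3-labelled libraries, stromal markers to at most 3.22 and 6.37, and endothelial markers to at most 0.684 and 32.3. The last range was 27.2 to 32.3 under DMSO and 4.78 to 5.22 under erastin. Of the 5 endothelial markers, only 2 reached 1 FPKM in every PC3-labelled DMSO library and 1 in every erastin library. The part of these markers in the results was not tested. The LNCaP libraries of number 3 and the PC3-labelled DMSO library 1 stand apart from their group: chi-square per degree of freedom against the other two was 27.4 to 73.2 in LNCaP and 65.5 and 98.1 in the PC3-labelled DMSO group, where the other two had 8.06. Mitochondrial ribosomal RNA took 1.67 to 2.46% of LNCaP reads under DMSO and 2.73 to 3.54% under erastin, and 0.628 to 0.944% and 1.95 to 2.18% in PC3-labelled libraries. It moved with treatment, and its part in the results below was not tested.

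The promoters of 3 genes are shown first, because MT2A and MT1X are the metallothioneins with a RefSeq promoter window that were well above the detection floor, and SLC30A1 had the largest response. Promoter windows were matched for 4 of the 9 genes (also MT1H). Each line is the 250 bases before the RefSeq start, 5′ to 3′ on the gene's strand, on GRCh38.p14, at chr16:56608334-56608583 (plus strand) for MT2A, chr16:56682220-56682469 (plus strand) for MT1X and chr1:211579162-211579411 (minus strand) for SLC30A1. Capitals mark matches to the core of the metal response element, TGCACNC or TGCGCNC, on either strand.
MT2A: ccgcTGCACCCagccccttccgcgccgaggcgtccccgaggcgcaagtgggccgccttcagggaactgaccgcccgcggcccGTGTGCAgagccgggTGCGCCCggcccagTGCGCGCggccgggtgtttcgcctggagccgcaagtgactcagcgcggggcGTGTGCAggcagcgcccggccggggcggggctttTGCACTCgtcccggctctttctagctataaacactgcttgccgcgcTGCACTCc
MT1X: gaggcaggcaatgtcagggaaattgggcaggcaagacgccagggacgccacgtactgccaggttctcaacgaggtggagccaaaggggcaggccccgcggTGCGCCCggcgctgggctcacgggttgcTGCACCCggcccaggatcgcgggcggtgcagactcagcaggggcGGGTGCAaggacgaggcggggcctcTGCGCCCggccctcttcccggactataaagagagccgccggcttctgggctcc
SLC30A1: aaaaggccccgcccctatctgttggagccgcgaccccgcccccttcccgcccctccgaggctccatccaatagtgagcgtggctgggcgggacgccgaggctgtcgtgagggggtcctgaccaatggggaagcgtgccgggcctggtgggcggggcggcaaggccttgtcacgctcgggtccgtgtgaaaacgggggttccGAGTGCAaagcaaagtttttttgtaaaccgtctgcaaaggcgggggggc
The core occurred 7 times in the MT2A window, 4 times in MT1X, 8 times in MT1H and 1 time in SLC30A1, where it lies 49 bases before the start. At least 1 match was found in 24.8% of 35116 promoter windows of the same length, and at least 3 matches in 1.58%. The single match of SLC30A1 is thus a common count, and those of the 3 metallothioneins are not. The core of the antioxidant response element, TGACNNNGC on either strand, was found 1 time each in MT2A, MT1X and SLC30A1 and shared no base with the capitals, and 10.9% of windows hold it. The 4 windows were 66.4 to 73.2% G or C, against a median of 58.0% over all windows. These are letter matches, and no binding was measured.

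**Figure D1:**
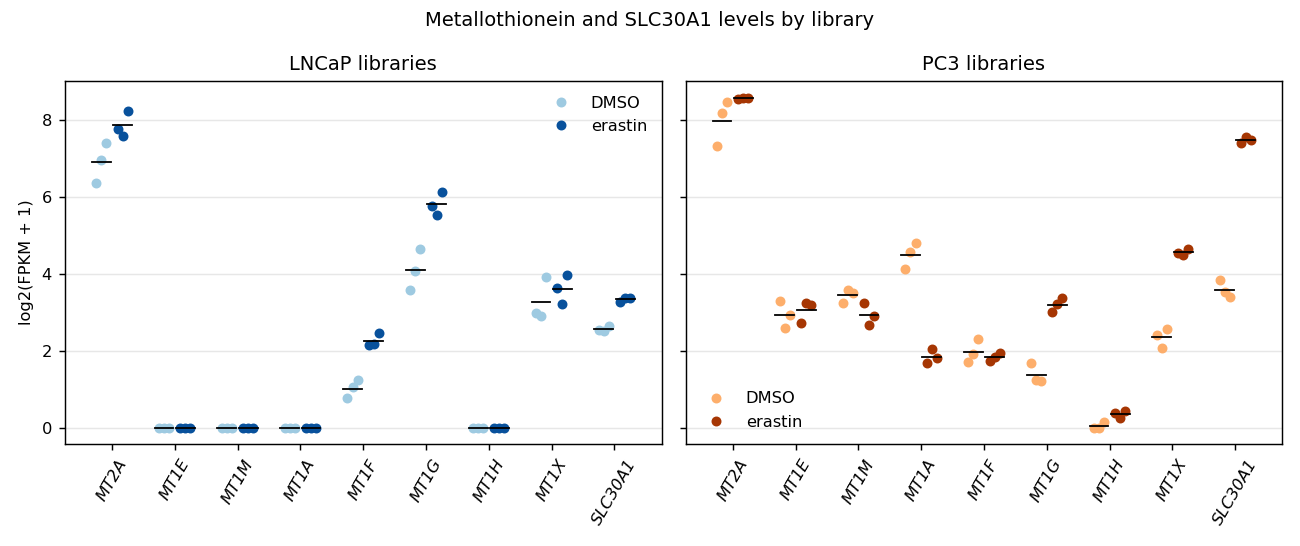
Level of each gene in each library, as log2(FPKM + 1), with LNCaP libraries in the left panel and PC3-labelled libraries in the right, DMSO light and erastin dark, and a bar at each group mean. MT1A, MT1E, MT1H and MT1M lie at 0 in all 6 LNCaP libraries, and SLC30A1 separates most in PC3-labelled libraries, from 9.51 to 13.3 FPKM under DMSO to 171 to 189 under erastin.

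In LNCaP, erastin libraries had more transcript of MT1G, MT1F and SLC30A1, by 3.28-, 3.68- and 1.86-fold in mean FPKM. MT2A was 1.90-fold higher on average and missed the threshold, MT1X overlapped between the groups, and 4 metallothioneins had no read at all. Of the 5 genes kept for testing (those with 1 FPKM or more in 3 or more libraries), 3 rose and 0 fell by limma at a Benjamini-Hochberg adjusted p under 0.05. MT1F, among the 3, would not have been kept on its DMSO libraries alone. Over all 13683 genes tested in LNCaP, 13.8% rose and 17.7% fell, 31.5% in all. In 4 of the 5, all with erastin higher, the groups did not overlap, and this held for 22.2% of all genes with erastin higher and 24.3% with erastin lower. The median log2 fold change of the 5 was 0.95, against -0.02 over all genes tested. With replicate number as a block, since the LNCaP numbers were taken as pairs, MT2A rose too, making 4 of the 5, and 6893 of the 13683 genes passed. The correlations between libraries set apart only number 3 as a pair, so this fit rests on an uncertain pairing.

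MT1G, on the minus strand of chromosome 16 (56666731 to 56668065, hg38), stood at 11.05, 16.01 and 24.2 FPKM in LNCaP DMSO libraries 1, 2 and 3 and at 53.5, 45.2 and 69.6 under erastin. Every erastin library was above every DMSO library, and the lowest erastin value was well clear of the highest DMSO value. The means were 17.1 ± 6.64 and 56.1 ± 12.4 FPKM (SD, n = 3 each), a log2 fold change on the log2(FPKM + 1) scale of 1.70 ± 0.29 (SE; limma, Benjamini-Hochberg adjusted p = 0.00620). MT1F (chromosome 16, 56657694 to 56660698) was at 0.707, 1.06 and 1.35 FPKM under DMSO and 3.41, 3.53 and 4.54 under erastin. The groups did not overlap, and the DMSO values rest on 20 to 39 reads each, those of erastin on 116 to 152. Its log2 fold change was 1.25 ± 0.16 (limma, Benjamini-Hochberg adjusted p = 0.00229). The DMSO libraries alone would not have kept MT1F for testing, so the filter itself favoured a rise and the call is no independent result.

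MT2A, the most abundant metallothionein of both lines (chromosome 16, 56608199 to 56609497 in the LNCaP table), was at 81.8, 125 and 169 FPKM in the LNCaP DMSO libraries and at 219, 193 and 302 under erastin. The erastin values all lay above the DMSO values, but the spread within each group was wide. From 125 ± 43.5 to 238 ± 56.9 FPKM, the log2 fold change was 0.95 ± 0.31 (limma, Benjamini-Hochberg adjusted p = 0.0544). With replicate number as a block it passed at the same fold change (limma, adjusted p = 0.00793), as it did without DMSO library 3 (log2 fold change 1.20, limma, adjusted p = 0.0196). Leaving out any of the other libraries in turn gave no call, with adjusted p of 0.0825 to 0.132 and a log2 fold change down to 0.68, without DMSO library 1. Library 3 was the highest of its treatment for each of the 5 genes tested in LNCaP, and it also had the highest mitochondrial ribosomal RNA share of its treatment. Without both number 3 libraries, MT2A had a log2 fold change of 1.01 (limma, adjusted p = 0.0185), and MT1G, MT1F and SLC30A1 still rose, with adjusted p of 0.00223, 0.00292 and 0.00332.

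MT1X (chromosome 16, 56682424 to 56684196 in the LNCaP table) was at 6.90, 6.52 and 14.2 FPKM under DMSO in LNCaP and at 11.4, 8.29 and 14.9 under erastin. The DMSO library of number 3 lay above 2 of the 3 erastin libraries. At 0.34 ± 0.32, the log2 change did not pass (limma, Benjamini-Hochberg adjusted p = 0.455). It was 0.67 without DMSO library 3 (limma, adjusted p = 0.0649), 0.54 without erastin library 2, and 0.19, 0.16 and 0.15 without DMSO library 1, DMSO library 2 and erastin library 3. Without both number 3 libraries it was 0.48 (limma, adjusted p = 0.0584). SLC30A1 (minus strand of chromosome 1, 211571568 to 211578742 in the LNCaP table) was tight, at 4.83, 4.77 and 5.23 FPKM under DMSO and 8.73, 9.42 and 9.45 under erastin. The groups were far apart relative to their spread, with means of 4.94 ± 0.250 and 9.20 ± 0.405 FPKM. Its log2 fold change was 0.78 ± 0.09 (limma, Benjamini-Hochberg adjusted p = 0.00183).

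MT1A, MT1E, MT1H and MT1M had 0 reads in each of the 6 LNCaP libraries. A count of 0 allows up to 3 reads, which is 0.417 to 0.506 FPKM for MT1A, 0.157 to 0.191 for MT1E, 0.229 to 0.277 for MT1H and 0.175 to 0.213 for MT1M, counting error only. Of the 16 genes named as metallothioneins at the chromosome 16 locus in the LNCaP table, 10 were at 0 in every library. In the PC3-labelled libraries 0 of 15 were, but several were above 0 on very few reads. No PC3-labelled library held more than 1 read of MT4 or MT1L, 2 of MT1CP, 4 of MT1DP or MT1H, 5 of MT1B or 6 of MT3. There MT4, MT1JP, MT1CP and MT1B were above 0 only under erastin. Genes above 0 in a PC3-labelled library numbered 25679 to 26144 under DMSO and 30239 to 31311 under erastin. The part of this in the count was not tested. The map of the locus shows the LNCaP signal at MT2A, MT1F, MT1G and MT1X, with MT1DP, a pseudogene, at 1.92 ± 0.754 FPKM under DMSO and 2.35 ± 1.86 under erastin. The tables follow different annotation releases, so levels were not tested between lines.

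**Figure D2:**
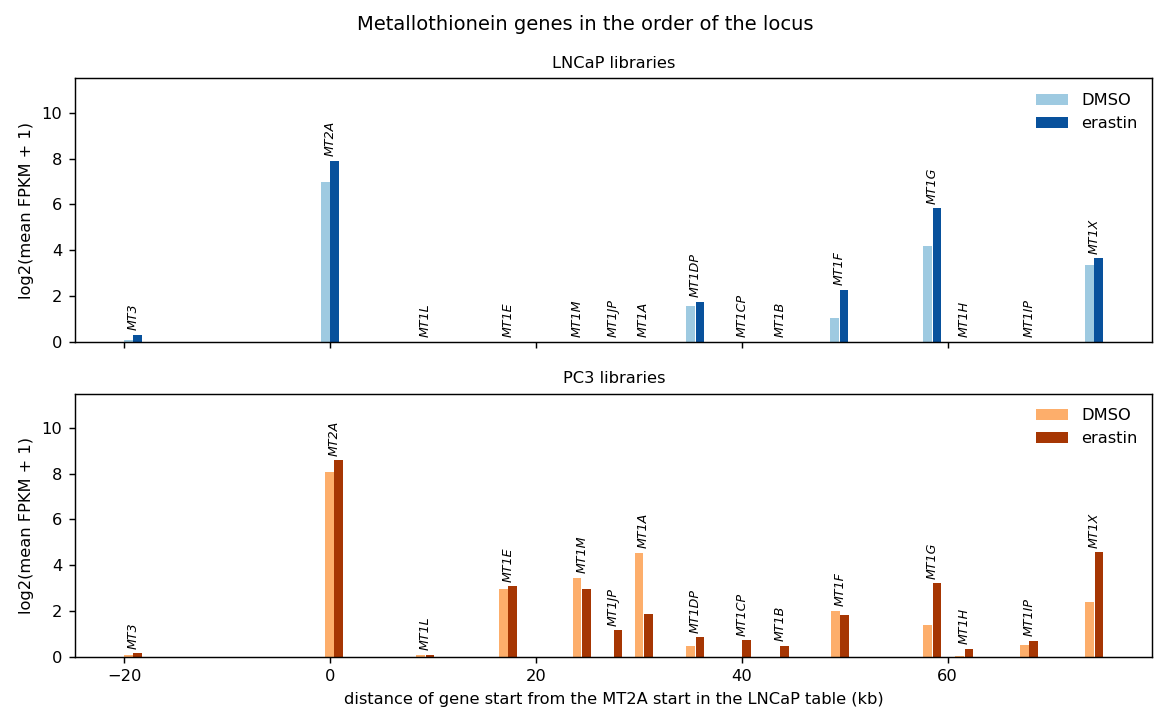
Mean level of metallothionein genes as log2(mean FPKM + 1), by distance in kilobases from the start of MT2A in the LNCaP table, LNCaP in the upper panel and PC3-labelled libraries in the lower, DMSO light and erastin dark, n = 3 each and no error bars. In LNCaP the genes between MT2A and MT1F other than MT1DP have no bar, whereas MT1E, MT1M and MT1A have bars in the PC3-labelled libraries.

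In the PC3-labelled libraries, erastin went with much more SLC30A1, a 16.1-fold higher mean FPKM, and with more MT1X and MT1G, 5.44- and 5.07-fold. MT1A went the other way, to 0.119 of its DMSO mean, and MT1M was slightly lower. MT2A, MT1E and MT1F did not pass the test, and MT1H was near 0. Of the 8 genes kept for testing, 3 rose and 2 fell by limma. Over all 15371 genes tested, 34.0% rose and 32.4% fell, 66.4% in all, so the share of the 8 called is close to that of all genes. The groups did not overlap for 4 of the 8 with erastin higher and 2 with erastin lower, against 36.7% and 35.2% of all genes. The median log2 fold change of the 8 was 0.35, against 0.00 over all genes tested.

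SLC30A1 was at 13.3, 10.6 and 9.51 FPKM in PC3-labelled DMSO libraries 1, 2 and 3 and at 171, 189 and 179 under erastin. The gap between the groups was many times the spread within either. The means were 11.1 ± 1.96 and 179.7 ± 9.43 FPKM, on 789 to 1095 and 13892 to 16972 reads a library. The log2 fold change was 3.91 ± 0.14 (limma, adjusted p = 7.51e-06 after Benjamini-Hochberg) and ranked 30 from the top of the 15371 genes. Under erastin SLC30A1 was thus the second most abundant of the 9 genes per length, after MT2A. Without DMSO library 1 the log2 fold change was 4.03 (limma, adjusted p = 9.12e-07).

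MT1X was at 4.35, 3.25 and 4.98 FPKM under DMSO and at 22.5, 21.6 and 24.2 under erastin. All erastin libraries were above all DMSO libraries, and the log2 fold change was 2.21 ± 0.15 (limma, Benjamini-Hochberg adjusted p = 4.36e-05). MT1X shares its start with AC026461.1, a gene annotated on the same strand and listed at 0 in all 12 libraries, so how reads of the shared stretch were assigned is uncertain. MT1XP1, a pseudogene named for MT1X, was higher too, from 0.751 ± 0.744 to 8.95 ± 3.20 FPKM (limma, Benjamini-Hochberg adjusted p = 0.00117). Its DMSO libraries alone would not have kept it for testing. MT1G was at 2.20, 1.38 and 1.33 FPKM under DMSO and at 7.05, 8.37 and 9.44 under erastin. These groups did not overlap either, and the log2 fold change was 1.82 ± 0.17 (limma, Benjamini-Hochberg adjusted p = 0.000145).

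MT1A (chromosome 16, 56638666 to 56640087) was at 16.5, 22.7 and 27.3 FPKM under DMSO and at 2.19, 3.17 and 2.51 under erastin. It was the second most abundant of the 9 genes under DMSO and among the lowest under erastin. The DMSO values rest on 91 to 152 reads each, those of erastin on 12 to 18, and the log2 fold change was -2.66 ± 0.21 (limma, Benjamini-Hochberg adjusted p = 6.26e-05). MT1A and MT1X, in the same locus, therefore moved in opposite directions. Over the 28 pairs of the 8 metallothioneins, coding sequences of GENCODE v29 transcripts were 88.7 to 94.6% identical, and the longest stretch shared by 2 transcripts was 32 to 96 bases. The sources used here give neither the read length nor how reads that match several genes were treated, so the split of reads among these genes is uncertain.

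MT1M was at 8.55, 10.97 and 10.4 FPKM under DMSO and at 8.50, 5.32 and 6.56 under erastin. The lowest DMSO and the highest erastin value almost touched. The log2 fold change was -0.51 ± 0.18 (limma, Benjamini-Hochberg adjusted p = 0.0426), and the call was lost under 9 of 15 alternatives, with adjusted p up to 0.174. Leaving out 1 library ended it for DMSO 2 (0.132), DMSO 3 (0.0961), erastin 2 (0.147) and erastin 3 (0.116). MT1E was at 8.92, 5.00 and 6.68 FPKM under DMSO and at 5.64, 8.56 and 8.09 under erastin, a log2 fold change of 0.11 ± 0.23 (limma, adjusted p = 0.685). MT1F was at 2.28, 2.77 and 3.95 FPKM and at 2.35, 2.56 and 2.85, a log2 fold change of -0.14 ± 0.17 (limma, adjusted p = 0.507). Both genes overlapped between the groups. MT1H was at 0, 0 and 0.0983 FPKM under DMSO and 0.300, 0.193 and 0.344 under erastin, on 0 to 4 reads a library, and was not tested.

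MT2A in the PC3-labelled libraries was at 160, 290.0 and 356 FPKM under DMSO and at 375, 385 and 386 under erastin. The erastin libraries were nearly alike, and the DMSO libraries were spread widely, with library 1 far below the other two. From 268 ± 99.8 to 382 ± 6.54 FPKM, the log2 fold change of 0.58 ± 0.28 did not pass (limma, Benjamini-Hochberg adjusted p = 0.108). Without DMSO library 1 it was 0.25 (limma, adjusted p = 0.0644), and without DMSO library 3 it was 0.82 and passed (limma, adjusted p = 0.0302).

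**Figure D3:**
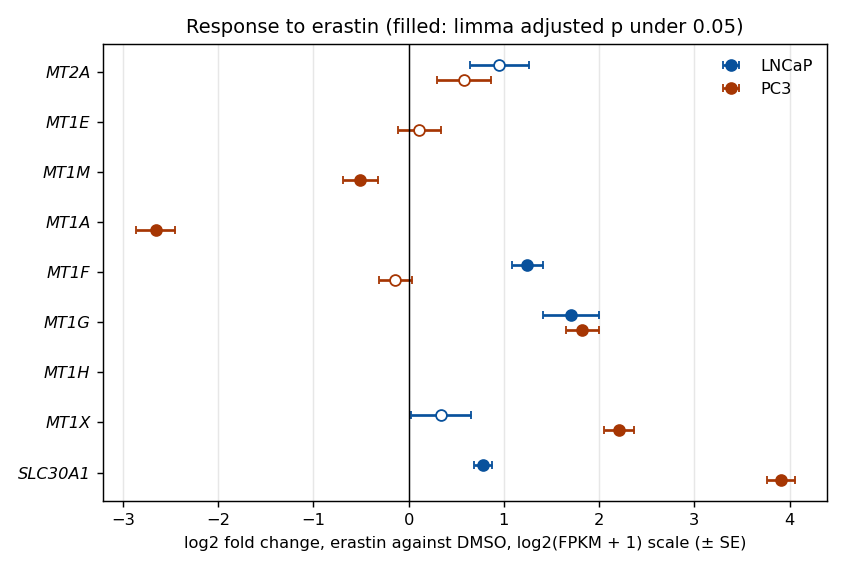
Log2 fold change of each gene, erastin against DMSO, on the log2(FPKM + 1) scale with its standard error, LNCaP in blue and PC3-labelled libraries in brown, filled where the limma adjusted p was under 0.05 and absent where the gene was not tested. SLC30A1 lies at 0.78 in LNCaP and 3.91 in PC3-labelled libraries, MT1G lies at 1.70 and 1.82, and MT1A, tested in PC3-labelled libraries alone, lies at -2.66.

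By level, MT2A led in all 4 groups. It made up 80.9 to 84.2% of the FPKM summed over the 8 metallothioneins in LNCaP under DMSO and 76.2 to 77.2% under erastin. In the PC3-labelled libraries its share was 78.9 to 86.7% under DMSO and 87.7 to 88.6% under erastin. The share of summed FPKM was thus lower in every LNCaP erastin library than in any LNCaP DMSO library. It was higher in every PC3-labelled erastin library than in any DMSO library there. The share depends on the deposited gene lengths: for PC3-labelled libraries MT1X has 1727 bases against 450 in its transcript. The direction in PC3-labelled libraries could therefore differ per transcript length. The sum itself was 153 ± 54.1 and 309 ± 73.1 FPKM in LNCaP, and 316 ± 105 and 433 ± 8.84 in PC3-labelled libraries, DMSO first. Without MT2A the sum was 27.3 ± 11.04 and 71.4 ± 16.2 FPKM in LNCaP, and 47.9 ± 6.18 and 50.8 ± 2.88 in PC3-labelled libraries, where the rises of MT1X and MT1G and the fall of MT1A stood beside each other. In PC3-labelled libraries MT1X went from 81 to 121 reads a library to 535 to 674, divided by its whole span. MT1A went from 91 to 152 reads to 12 to 18, divided by 396 bases, the length of its transcript. Whether the total of these genes was level there is therefore uncertain. In bulk RNA, fewer cells with a transcript and less of it per cell cannot be told apart.

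The order after MT2A differed by group. Under DMSO in LNCaP it was MT1G, MT1X, SLC30A1 and MT1F, and MT1G and MT1X overlapped between libraries. Under erastin MT1X and SLC30A1 overlapped instead, and MT1G stood clear. Under DMSO in PC3-labelled libraries the order was MT1A, SLC30A1, MT1M, MT1E, MT1X, MT1F and MT1G, and SLC30A1 with MT1M, MT1M with MT1E, and MT1X with MT1F overlapped. Under erastin it was SLC30A1, MT1X, MT1G, MT1E, MT1M, MT1A and MT1F, with overlap between MT1G and MT1E, MT1E and MT1M, and MT1A and MT1F. These orders are of FPKM within a table and carry no test. They depend on the deposited gene lengths, which for MT2A and MT1X are the whole gene span, introns included. For LNCaP MT1X has 1773 bases against 450 in its transcript, and MT1G 750 against 405. Per transcript length MT1G and MT1X could therefore change places under DMSO in LNCaP. For PC3-labelled libraries MT1X has 1727 bases against 450, and MT1M 511 against 829. Under DMSO there, MT1X could stand higher and MT1M lower per transcript length.

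The difference between the responses of the 2 lines was tested for the 5 genes kept in both. For SLC30A1 the response was smaller in LNCaP, by -3.13 ± 0.19 on the log2 scale, LNCaP minus PC3-labelled (limma interaction, Benjamini-Hochberg adjusted p = 3.38e-07). The response of MT1X was also smaller in LNCaP, with a difference of -1.87 ± 0.37 (limma interaction, adjusted p = 0.00162). MT1F went the other way, with a difference of 1.38 ± 0.25 (limma interaction, adjusted p = 0.000749). In LNCaP the DMSO libraries alone would not have kept MT1F for testing. For MT1G the difference was -0.12 ± 0.35 (limma interaction, adjusted p = 0.803) and for MT2A 0.37 ± 0.44 (adjusted p = 0.529), so neither difference passed, and these errors are wide. The added 1 understates changes of low genes, and MT1G was at 1.64 FPKM in PC3-labelled DMSO libraries. With 0.1 added instead, the MT1G difference was -0.54, and with limma voom on recovered reads it was -0.58, neither called. It was above 0 under 3 alternatives, given below. Leaving out 1 library moved the MT2A difference between 0.094, without LNCaP DMSO library 1, and 0.70, without PC3-labelled DMSO library 1. It was 0.61 and 0.18 without LNCaP DMSO library 3 and erastin library 3, and 0.13 without PC3-labelled DMSO library 3, and none of these passed. Over all 11823 genes tested, 44.4% differed between the lines, 21.4% higher and 23.0% lower in LNCaP.

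Of 13 further genes of the family, 3 were tested in LNCaP, with 0 higher and 0 lower, where 31.5% of all genes were called. In the PC3-labelled libraries 2 were tested, both higher, where 34.0% of all genes rose. These were MT1XP1, above, and MT1JP, a pseudogene between MT1M and MT1A. MT1JP was at 0 in all 3 DMSO libraries and at 1.45, 1.05 and 1.24 FPKM under erastin, on at most 20 reads (limma, Benjamini-Hochberg adjusted p = 9.75e-05). Neither gene would have been kept for testing on its DMSO libraries, so the filter itself favoured a rise and the calls are no independent result. MT3, the brain metallothionein, was at 0.0468 ± 0.0187 and 0.224 ± 0.181 FPKM in LNCaP and at 0.0506 ± 0.0575 and 0.110 ± 0.114 in PC3-labelled libraries, and was not tested.

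MTF1, the metal-sensing activator, rose in the PC3-labelled libraries. It was at 4.85, 3.77 and 3.67 FPKM under DMSO and at 19.3, 19.8 and 20.6 under erastin, with no overlap. The log2 fold change was 2.04 ± 0.13 (limma, Benjamini-Hochberg adjusted p = 3.22e-05). In LNCaP it was at 3.12 ± 1.01 and 4.70 ± 1.27 FPKM, a log2 fold change of 0.48 ± 0.25 (limma, adjusted p = 0.189), and the difference between lines was -1.57 ± 0.29 (limma interaction, adjusted p = 0.00103). Of the 8 listed transcription factors of metal-responsive or linked genes, 7 were tested in LNCaP, with 0 higher and 0 lower, where 31.5% of all genes were called. All 8 were tested in PC3-labelled libraries, with 3 higher and 2 lower, where 66.4% of all genes were called. The share of these factors called there was thus close to that of all genes. Besides MTF1, the calls there were MTF2, a chromatin-binding protein, at a log2 fold change of 0.60, and the general promoter-binding factors USF1 at 0.81, SP1 at -0.89 and USF2 at -0.89; MTF2 falls outside the naming rule and completes the count. NFE2L2, which encodes the antioxidant regulator NRF2, did not pass at transcript level in LNCaP (limma, adjusted p = 0.179) or PC3-labelled libraries (limma, adjusted p = 0.514). NR3C1, the glucocorticoid receptor, was at 0.0871 ± 0.0390 and 0.570 ± 0.171 FPKM in LNCaP, under the filter, and at 6.35 ± 2.20 and 5.31 ± 0.281 in PC3-labelled libraries (limma, adjusted p = 0.495).

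**Figure D4:**
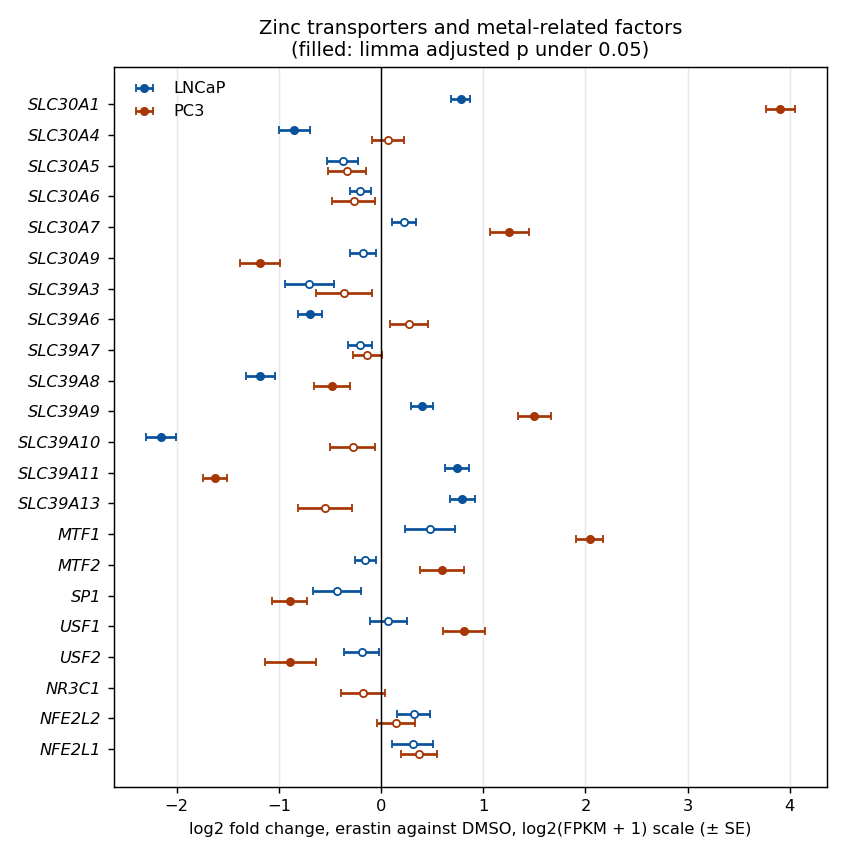
Log2 fold change with standard error, erastin against DMSO on the log2(FPKM + 1) scale, of zinc transporter genes and of factors that act on metal-responsive genes, LNCaP in blue and PC3-labelled libraries in brown, filled where the limma adjusted p was under 0.05. SLC30A1 in PC3-labelled libraries, at 3.91, lies farthest to the right, followed by MTF1 at 2.04, and SLC39A10 in LNCaP, at -2.15, lies farthest to the left.

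Most other zinc exporters were not called. Of 10 listed, 5 were tested in each line. In LNCaP 0 rose and 1 fell (median log2 fold change -0.20), where 31.5% of all genes were called. In PC3-labelled libraries 1 rose and 1 fell (median -0.27), where 66.4% of all genes were called. SLC30A4, which loads zinc into vesicles, fell in LNCaP from 39.9 ± 5.37 to 21.7 ± 2.53 FPKM (limma, Benjamini-Hochberg adjusted p = 0.00713). In the PC3-labelled libraries SLC30A7, a Golgi zinc transporter, rose from 5.00 ± 1.49 to 13.0 ± 1.19 FPKM (limma, adjusted p = 0.00114). SLC30A9 fell there from 13.8 ± 3.94 to 5.40 ± 0.366 FPKM (limma, adjusted p = 0.00161).

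Zinc importers were mixed. Of 14 listed, 10 were tested in each line. In LNCaP 3 rose and 4 fell (median log2 fold change -0.57), against 13.8% and 17.7% of all genes. In PC3-labelled libraries 1 rose and 3 fell (median -0.32), against 34.0% and 32.4% of all genes. SLC39A10, a plasma membrane importer, was at 19.8, 15.4 and 13.5 FPKM in the LNCaP DMSO libraries and at 2.97, 2.89 and 2.64 under erastin. The groups were far apart, and the log2 fold change was -2.15 ± 0.15 (limma, Benjamini-Hochberg adjusted p = 0.000299), while in PC3-labelled libraries it was -0.28 ± 0.22 (limma, adjusted p = 0.297). SLC39A8, which carries zinc and manganese, fell in both lines, at log2 fold changes of -1.18 and -0.48 (limma, adjusted p = 0.00193 and 0.0478). SLC39A13 rose in LNCaP, from 5.78 ± 0.888 to 10.7 ± 0.390 FPKM (limma, adjusted p = 0.00435). SLC39A11 rose in LNCaP from 3.59 ± 0.526 to 6.64 ± 0.326 FPKM and fell in PC3-labelled libraries from 4.32 ± 0.458 to 0.720 ± 0.0713, a difference of 2.37 ± 0.17 (limma interaction, adjusted p = 9.86e-07). In the PC3-labelled libraries SLC39A11 was kept for testing only through its DMSO libraries. SLC39A9 rose from 35.1 ± 6.95 to 100.2 ± 6.18 FPKM in PC3-labelled libraries (limma, adjusted p = 0.000212), but it overlaps ERH on the opposite strand, itself at 122 to 183 FPKM, and the sources used here do not say whether counting used strand.

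Among copper genes, 2 of 11 tested rose and 2 fell in LNCaP, where 31.5% of all genes were called. In PC3-labelled libraries 1 of 10 rose and 2 fell, where 66.4% of all genes were called. STEAP3, a metalloreductase for iron and copper, fell in both, at a log2 fold change of -1.43 in LNCaP and -1.83 in PC3-labelled libraries (limma, Benjamini-Hochberg adjusted p = 0.000347 and 0.000117). In LNCaP it was kept for testing only through its DMSO libraries, being at 0.829 to 0.889 FPKM under erastin. ATP7A, a copper exporter, rose in LNCaP (log2 fold change 1.12), as did CCS, the copper chaperone of SOD1 (0.61), and SLC31A1, the copper importer, fell (-0.80). In PC3-labelled libraries SOD1 fell (-0.58) and COMMD1 rose (0.43).

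Among genes listed for heavy-metal and protein-damage stress, 8 of 18 tested rose and 2 fell in LNCaP, with a median log2 fold change of 0.44, against 13.8% and 17.7% of all genes. In PC3-labelled libraries 12 of 19 rose and 1 fell, with a median of 1.30, against 34.0% and 32.4% of all genes. HMOX1, the heme oxygenase that is induced by cadmium and oxidants, was at 17.7, 19.6 and 22.3 FPKM in LNCaP DMSO libraries and at 105, 98.9 and 122 under erastin (log2 fold change 2.39; limma, adjusted p = 0.000241). In PC3-labelled libraries it rose from 5.84 ± 1.16 to 20.5 ± 4.19 FPKM (log2 fold change 1.65; limma, adjusted p = 0.000338). OSGIN1, SRXN1 and TXNRD1, all linked to the antioxidant response, followed HMOX1 in LNCaP at 2.08, 1.66 and 1.41. In PC3-labelled libraries the stress genes ATF3, GADD45B, HSPA1A and HSPA1B led, at log2 fold changes of 4.49, 3.51, 3.14 and 2.79. The 2 falls in LNCaP were ATF3 at -0.62 and DDIT3 at -0.77 (limma, adjusted p = 0.0135 and 0.0493). The 1 fall in PC3-labelled libraries was TXNRD1 at -1.15 (limma, adjusted p = 0.000138), and SRXN1 was not called there (-0.026). These values fall outside the naming rule and were added after they were seen. HSPA1A and HSPA1B are near-identical copies, so their separate values are uncertain.

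Glucocorticoid-responsive genes were listed because glucocorticoids also act on MT2A. In LNCaP 0 of 10 tested rose and 3 fell, TSC22D3 at a log2 fold change of -1.68, FKBP5 at -1.37 and ERRFI1 at -0.66. In PC3-labelled libraries 7 of 12 rose, among them PER1 at 1.99, SGK1 at 1.93 and ANGPTL4 at 1.58, and 3 fell, among them NFKBIA at -0.87 and KLF9 at -0.67, both outside the naming rule and named after their values were seen. Over all genes tested, 13.8% rose and 17.7% fell in LNCaP, and 34.0% and 32.4% in PC3-labelled libraries; the difference between lines was not tested for the list. FKBP5 and TSC22D3 are also androgen-responsive.

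Genes most like MT2A, MT1X and SLC30A1 were taken by the highest Pearson r of log2(FPKM + 1), centred within each line, over all 12 libraries and among protein-coding genes kept in both lines. The points share their library and treatment, so r carries no test. For MT2A these included PRAF2 at 0.991, B3GAT3 at 0.984, SELENOM at 0.981 and CSRP1 at 0.969. For MT1X they included SELENOK at 0.986, PBDC1 at 0.983, TRAPPC2B at 0.982 and AP4B1 at 0.981. For SLC30A1 they were DAAM1, IL1RAP, EAF1, ZBED9 and KLHL28, at 0.997 to 0.998.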

How the data were processed

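Per the labels' protocols, TRIzol was used for RNA and an Illumina TruSeq RNA kit for the libraries. The submitters' processing notes name HISAT2 version 2.0.5 and hg38. The authors deposited FPKM values in 1 table per line. The sources used here name no counting tool. Annotation differs between the tables: 58503 genes are shared by identifier, and 5 of the 9 genes have another length in each, so lines were fitted within their own tables and levels were not tested between them. FPKM multiplied by gene length gave whole reads, within 0.1 reads, for 100% of values. The step of 1 read implied depths of 0.871 to 1.12 (LNCaP) and 0.907 to 1.02 (PC3-labelled) relative to those reads, so the authors' FPKM hold another scaling between libraries.

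Values were analysed as log2(FPKM + 1), which understates changes of low genes, in genes that reached 1 FPKM in 3 or more of the 6 libraries of a line. A gene can pass this filter through 1 treatment alone, and the direction of its call then follows from the filter. Erastin was compared with DMSO by limma version 3.58.1 in R version 4.3.3 (variance trend, two-sided, Benjamini-Hochberg over all genes kept, threshold 0.05), and lines by the interaction over all 12 libraries. Plots were drawn with matplotlib version 3.10.9. Groups follow the labels, and p-values measure the spread between libraries, which may be technical. Chi-square per degree of freedom between replicates was at least 3.66, so none agreed within sampling noise.

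Replicate numbers come from the sample titles. In LNCaP, same-numbered DMSO and erastin libraries deviated together across genes (r = 0.254, 0.347 and 0.744), and the numbers were taken as pairs. Unlike numbers did so as well, with r = 0.612 for DMSO 1 with erastin 2 and 0.195 for DMSO 2 with erastin 1. The pairing is therefore uncertain, and the main fit used no block. In PC3-labelled libraries the same-number values were -0.380, -0.0135 and -0.311, and the numbers were not taken as pairs.

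The 9 genes and the gene lists were chosen with earlier results of these data known. Named were all 9 genes, up to 4 genes per list and line with the largest change among those past the test, MTF1, NR3C1, NFE2L2, HMOX1 and MT3 whatever their result, and the 5 genes most like each of MT2A, MT1X and SLC30A1. Some genes and a sequence taken by these rules are not reported here. Alternatives covered the pseudocount, the filter, the scaling, limma voom on recovered reads, a replicate block, a joint fit of both lines and omission of each library. Leaving out both LNCaP libraries of number 3 was chosen after seeing the data.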

Additional observations from a re-analysis of the deposited data

Results flagged for a closer look

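The responses of the 2 lines differed by the limma interaction test for 3 of the 5 genes kept in both, where 44.4% of all 11823 genes tested differed. SLC30A1 differed by -3.13 (log2, LNCaP minus PC3-labelled), with a rise in all 3 erastin libraries of each line over every DMSO library. MT1X differed by -1.87, with separated groups in PC3-labelled libraries and overlapping groups in LNCaP. MT1F differed by 1.38, with separated groups in LNCaP and overlapping groups in PC3-labelled libraries. In LNCaP the DMSO libraries alone would not have kept MT1F for testing, so the filter favoured its rise there.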

How the results depend on the processing

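Of 310 recomputed values of the 8 genes tested in either line, under alternatives, 285 kept their direction and their side of the threshold. The rises of MT1F, MT1G and SLC30A1 in LNCaP, the rises of SLC30A1, MT1X and MT1G and the fall of MT1A in PC3-labelled libraries, and the line differences of SLC30A1, MT1X and MT1F kept both under every alternative run for them. MT1F was not tested under a mean of at least 5 FPKM. In LNCaP its DMSO libraries alone would not have kept it in the main fit, so the filter favoured that rise. The remaining 25 values concern 5 genes, and their causes were not tested.

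LNCaP MT2A passed in 7 of 17 alternatives, among them quantile scaling (limma, adjusted p = 0.000515) and the protein-coding total (0.00479), with a range of 0.000515 to 0.136. PC3-labelled MT2A passed in 3 of 16, and MT1M lost its call in 9 of 15. Uncalled values that changed sign were PC3-labelled MT1F with the protein-coding total (0.023) and without DMSO replicate 3 (0.026; -0.27 to 0.026 over the libraries left out), MT1E without DMSO replicate 2 (-0.069; -0.069 to 0.29), and the line difference of MT1G with quantile scaling (0.044), without LNCaP DMSO replicate 3 (0.15; -0.38 to 0.15) and without LNCaP erastin replicate 2 (0.019). Under the protein-coding total, the median log2 fold change over all genes was 0.10 in LNCaP and 0.18 in PC3-labelled libraries. LNCaP calls, 1894 higher and 2418 lower, were 2262 and 1948 under it and 2680 and 2389 under quantile scaling.

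With replicate number as a block, 6893 genes passed in LNCaP against 4312, 9068 in PC3-labelled libraries against 10214, and 5469 for the interaction against 5248. The block changed no other call of these genes than those of LNCaP MT2A and of PC3-labelled MT1M (limma, adjusted p = 0.106). A mean of at least 5 FPKM, which tests fewer genes, left 2572, 5240 and 2476 genes, and no filter gave 9719 for the interaction. Leaving out 1 library gave 2225 to 4209 genes in LNCaP, with 2721 without DMSO replicate 2, 2225 without erastin replicate 1 and 2588 without erastin replicate 2. It gave 8659 to 12354 genes in PC3-labelled libraries and 4501 to 6553 for the interaction. Depth limits MT1H, and MT1A, MT1E and MT1M in LNCaP, to statements about the floor of 3 reads.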
